A study of Rattus norvegicus with 6 samples.

Results

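The genes described here encode the proteins of the mitochondrial ribosome, measured in rat liver after treatment with a metal chelator. They were chosen by name: every non-control probe whose RefSeq accession maps to a rat symbol made of Mrpl or Mrps, a number and at most 1 further letter. The gene table holds 75 such symbols, and 66 of them had a probe on the array, among 11251 named genes tested. The other 9, Mrpl28, Mrpl33, Mrpl39, Mrpl43, Mrps10, Mrps21l, Mrps28, Mrps6 and Mrps7, had no matched probe and were not analysed here. All 66 genes were well above background on all 6 arrays, so none entered through a filter in which only 1 group was bright. By structural knowledge of the ribosome, 44 of the 66 belong to the large subunit, which counts Mrps30 and Mrps18a in spite of their names, and 22 to the small subunit.

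The mitochondrial ribosome translates the few messenger RNAs made from mitochondrial DNA, all of which encode core subunits of the respiratory chain and the ATP synthase. Its RNAs come from the mitochondrial genome, but every one of its proteins is encoded in the nucleus, made in the cytosol and imported. Some of these proteins descend from the ribosome of the bacterial ancestor and the others were added in the mitochondrial lineage. Hepatocytes are rich in mitochondria.

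Liver total RNA came from 6 male Sprague-Dawley (Crl:CD(SD)) rats bought at 5 weeks of age, with 1 one-colour Agilent array per rat. Of these, 3 received vehicle and 3 received nitrilotriacetic acid trisodium monohydrate (NTA), a chelator of metal ions, at 1000 mg/kg/day. The labels call the vehicle purified water in one field and corn oil in another, and give the exposure as 28 days in one field and 9 weeks in another; neither point was settled here. The series title speaks of further chemicals, which were not analysed here. The labels name no transgene and no further agent in either group.

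The share of probes well above background ran from 62.4% to 64.5%, and the arrays correlated at r = 0.987 to 0.991 across features, which are not independent replicates. Vehicle replicate 3 stood apart: its median local background was 40 (54 to 61 elsewhere), and no other array shared its slide or scan day. All 3 NTA arrays were on a slide without vehicle arrays, and the effects of slide and NTA therefore cannot be told apart. All 18 hepatocyte markers were above background on every array. A level below is the log2 processed signal relative to the 75th percentile of the same array, and a difference is the NTA mean minus the vehicle mean of such levels. Levels of different probes were not compared, since probes differ in brightness. Where the levels of a list are summed below, bright probes weigh most in the sum.

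No mitochondrial ribosomal protein gene passed the test between NTA and vehicle. The count was 0 of 66 at a Benjamini-Hochberg adjusted p under 0.05 in limma, where 0.0297% of all 30353 features passed. At an unadjusted p under 0.05 there were 2 of the 66, 3.03% against 7.57% of all features, and both, Mrpl18 and Mrpl52, were lower with NTA. By direction, 3.91% of all features were lower and 3.66% higher at that p, against these 2 members lower and 0 higher. The share depended on the background correction. With normexp it was 13 of 66 in limma, 19.7% against 10.8% of all features, so the order of the 2 shares turned. The adjusted p ran from 0.37 to 0.999 over the 66 genes. The differences were small: 64 of the 66 lay within 0.25 of 0 on the log2 scale, and only Mrpl18 and Mrpl52 exceeded 0.5.

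The precision of these arrays bounded most members closely. The standard error of the difference was between 0.092 and 0.21 on the log2 scale. For 63 of the 66 genes the 95% confidence interval lay wholly within a 1.5-fold change in either direction, which held for 59.2% of all features. The exceptions were Mrpl18, Mrpl52 and Mrpl19. Since all 3 NTA arrays shared a slide without vehicle arrays, these intervals are for NTA and slide together. A p above the threshold does not show that a gene was unaffected, and the number of arrays limits the precision. In whole liver RNA, fewer cells of a type and less RNA per cell cannot be told apart.

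Small as they were, most of the differences had the same sign. In 52 of the 66 genes (78.8%) the NTA mean was lower, against 56.1% of all features, and the median difference was -0.060 against -0.027 over all features. After quantile normalization the split was 40 of 66 (60.6%) against 52.2% of all features, with medians of -0.029 and -0.0097. With normexp background correction it was 50 of 66 (75.8%) against 63.3%, with medians of -0.071 and -0.050. Without the filter on dim probes 61.3% of all features were below 0, and their median, -0.063, was lower than that of the members, -0.060. For 13 genes (19.7%, against 8.03% of all features) all 3 NTA rats lay below all 3 vehicle rats, and for 0 genes (against 5.57%) did they all lie above. These 13 were Mrpl18, Mrpl52, Mrpl15, Mrpl10, Mrpl2, Mrpl22, Mrpl37, Mrpl48, Mrpl51, Mrpl53 and Mrpl1 of the large subunit, and Mrps25 and Mrps16 of the small subunit. Genes of a coordinately expressed family are not independent of each other, so these shares are descriptions.

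**Figure D1:**
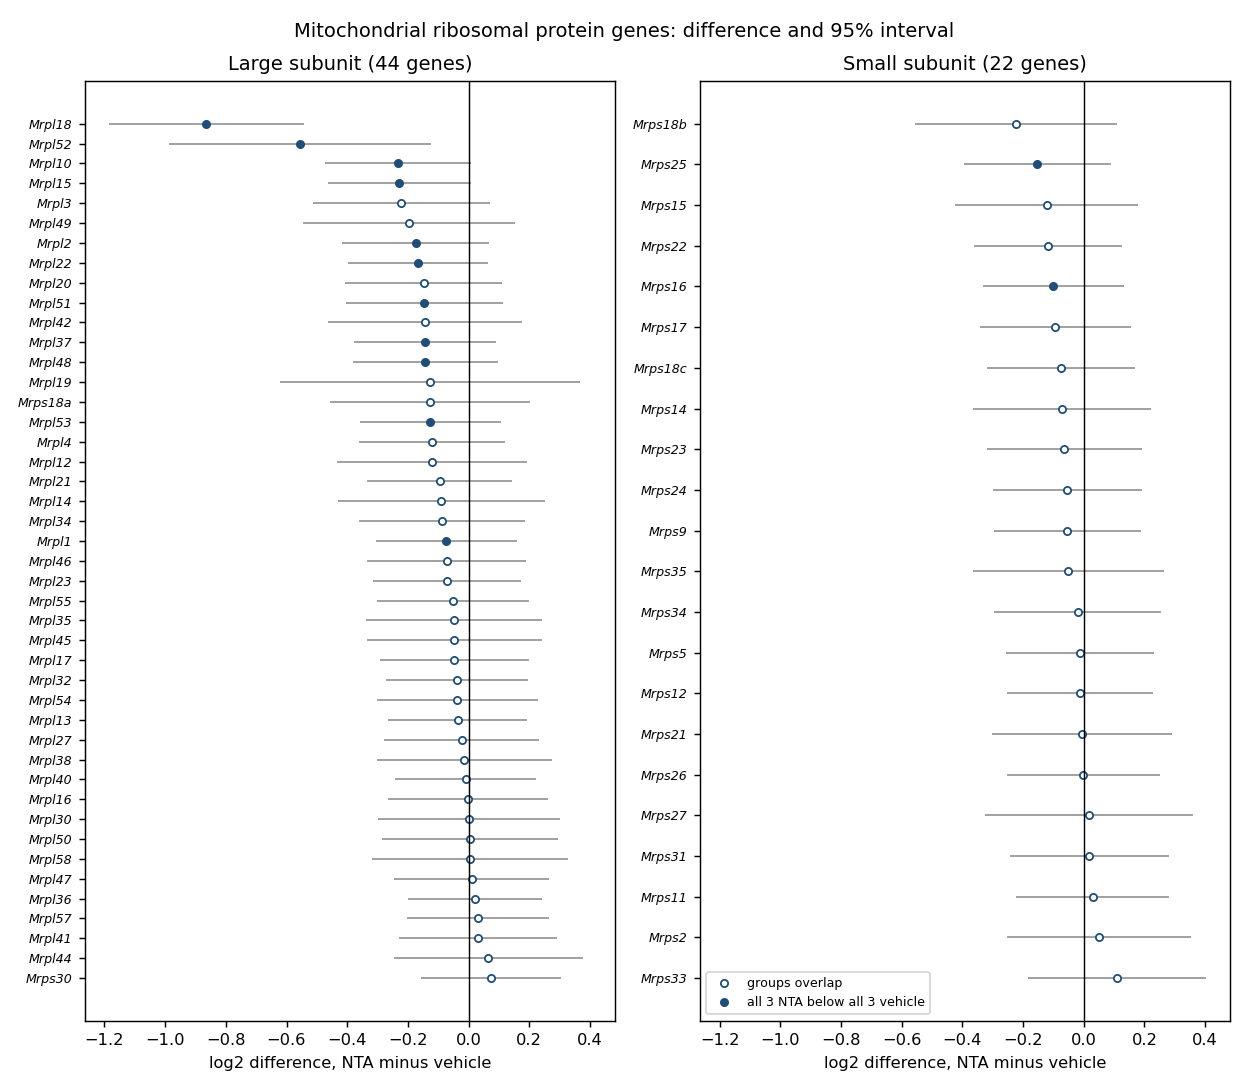
Log2 difference (NTA minus vehicle, x axis) of each gene, ordered within the large subunit (left, 44 genes) and the small subunit (right, 22 genes). Points are differences between means of 3 rats, lines are 95% confidence intervals from limma, and filled points mark the 13 genes whose groups did not overlap. Mrpl18 and Mrpl52 stand apart on the lower side, and the remaining 64 genes lie within 0.25 of 0.

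Mrpl18 had the lowest p of the family. Its bacterial counterpart binds the 5S ribosomal RNA in the central protuberance of the large subunit. On its brighter probe the vehicle rats had levels of 4.02, 4.05 and 4.30, and the NTA rats 3.36, 3.08 and 3.33. The groups were separated by a gap wider than the range within either group. The means were 4.13 ± 0.15 and 3.26 ± 0.15 (SD, n = 3), a difference of -0.86 (SE 0.13, 95% interval -1.19 to -0.54), or a 1.82-fold lower signal. This difference had an unadjusted p of 0.00046 and ranked 37 among all features by p, but its limma Benjamini-Hochberg adjusted p was 0.37. Over the alternative settings that adjusted p lay between 0.14 and 0.64.

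The other probe of Mrpl18 did not show a difference of that size. There the vehicle rats had levels of 3.45, 3.41 and 3.54 and the NTA rats 3.44, 3.29 and 3.25, a difference of -0.14. The groups overlapped on this probe. With the probes of the gene averaged the difference was -0.50.

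Mrpl52, a large-subunit protein with no bacterial counterpart, had the second-lowest p. Its brighter probe gave 2.30, 2.25 and 2.36 in the vehicle rats and 2.13, 1.60 and 1.51 in the NTA rats. NTA replicate 1 lay much nearer to the vehicle rats than the other NTA rats did, and the SD was 0.34 with NTA against 0.053 with vehicle. The difference was -0.56 (SE 0.18; limma, Benjamini-Hochberg adjusted p = 0.57), a 1.47-fold lower signal. Without NTA replicate 1 it was -0.75, and without NTA replicate 3 it was -0.44. The other probe gave 1.79, 1.74 and 1.72 against 1.53, 1.55 and 1.39, a difference of -0.26, again without overlap.

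Upstream sequence was read for members with an entry in the RefSeq promoter table (assembly GRCr8), which is not the build of the array design (rn4). The stretches shown are those of Mrpl18 and Mrpl52, the genes with the lowest p, and of Mrpl44, a gene on the higher side that holds an NRF1 site. They begin 250 bases before the annotated start and run for 240 bases; for Mrpl52, whose window lies within the span annotated to its neighbour Slc7a7, only 30 bases around the match are shown. Capitals mark the match to a searched motif on either strand: a CCAAT box (read as ATTGG on this strand) for Mrpl18, the core bound by ETS factors such as GABP (CTTCCGG) for Mrpl52, and a CCAAT box and an NRF1 site for Mrpl44. All 3 genes lie on the plus strand.
Mrpl18, chr1:50384702-50384941: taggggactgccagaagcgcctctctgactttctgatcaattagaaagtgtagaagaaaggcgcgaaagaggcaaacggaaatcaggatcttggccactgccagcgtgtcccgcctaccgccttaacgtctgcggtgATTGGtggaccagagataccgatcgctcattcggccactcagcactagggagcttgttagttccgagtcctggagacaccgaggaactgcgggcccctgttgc
Mrpl52, chr15:31852876-31852905: caagatgtcggCTTCCGGttttccccggca
Mrpl44, chr9:88554800-88555039: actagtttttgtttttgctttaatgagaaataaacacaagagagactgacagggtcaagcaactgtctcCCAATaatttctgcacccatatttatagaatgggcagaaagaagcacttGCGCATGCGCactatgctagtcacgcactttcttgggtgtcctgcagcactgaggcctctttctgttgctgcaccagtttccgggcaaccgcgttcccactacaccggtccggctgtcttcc

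NRF1, GABP and YY1 are known regulators of nuclear genes for mitochondrial proteins, and each motif's share in the family's promoters is given beside its share in all promoters, as a description. Of the 75 symbols, 60 had a window of 300 bases (250 before to 50 after the start), and both strands were searched. The ETS core CCGGAAG was in 21 of 60 windows (35.0%), against 11.2% of 19005 promoters of protein-coding genes. The YY1 site AAGATGGC was in 15 (25.0% against 3.92%), and the NRF1 site was in 9 (15% against 6.09%). At least 1 of these 3 was in 34 windows (56.7% against 18.8%). The CCAAT box was in 26 (43.3% against 38.4%). A pair of inverted units of the heat shock element, TTCNNGAA, was in 3 (5.00% against 7.79%). The windows were also richer in CpG, with a median observed-to-expected ratio of 0.80 against 0.55.

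The differences between NTA and vehicle were set out by motif. Of the 66 genes measured, 54 had a promoter window. The median difference was -0.070 for the 19 with an ETS core and -0.072 for the 35 without. It was -0.039 for the 9 with an NRF1 site against -0.073 for the other 45, and -0.10 for the 12 with a YY1 site against -0.067 for the other 42. These are medians without a test, and the groups share genes.

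Many members share a promoter region with a gene on the opposite strand. For 14 of 60 (23.3%, against 5.84% of all promoters) the start of a gene on the other strand lay within 500 bases, head to head. Mrpl18 is paired with Tcp1, a subunit of the cytosolic chaperonin, whose start is 425 bases away. Tcp1 differed by -0.22 on its brightest probe (limma, Benjamini-Hochberg adjusted p = 0.74) and by -0.14 on each of its other 2 probes. Mrpl46 and Mrps11 are paired with each other at 234 bases and differed by -0.072 and 0.029.

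In the large subunit the median difference was -0.073, and 35 of 44 genes were below 0. Mrpl15, a core protein shared with bacteria, had levels of 2.26, 2.25 and 2.15 with vehicle and 2.06, 1.97 and 1.95 with NTA. Its difference of -0.23 (SE 0.098; limma, Benjamini-Hochberg adjusted p = 0.68) rests on its only probe. Mrpl10, which anchors the stalk that recruits translation factors, had 7.16, 7.28 and 7.35 against 7.01, 7.03 and 7.05, a difference of -0.23 (SE 0.10). The groups did not overlap for either gene, but the other probe of Mrpl10 gave -0.018 with overlapping groups.

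Mrpl12, the stalk protein that also binds the mitochondrial RNA polymerase, had 4.99, 4.77 and 5.09 against 4.97, 4.79 and 4.73, so the groups overlapped. Its difference was -0.12, and 0.044 with normexp background correction. Mrpl3 and Mrpl2, which pack around the peptidyl transferase centre, differed by -0.22 and -0.17. The other 2 probes of Mrpl2 gave -0.050 and -0.097. Mrpl22, a protein of the exit tunnel, had 3.82, 3.76 and 3.79 against 3.69, 3.61 and 3.57, a difference of -0.17. Its other probe gave 2.78, 2.71 and 2.94 against 2.59, 2.49 and 2.53, a difference of -0.27, and neither probe's groups overlapped. Mrpl37, found only in mitochondrial ribosomes, differed by -0.14.

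On the higher side of the large subunit no gene had separated groups on its brightest probe. Mrps30 (known as a large-subunit protein) differed by 0.074, and by -0.092 with normexp correction. Mrpl44, which carries a ribonuclease III-like fold, differed by 0.065, and by -0.045 with normexp. Mrpl57, Mrpl41 and Mrpl36 differed by 0.031, 0.031 and 0.021. Mrpl58, a peptidyl-tRNA hydrolase that became part of the ribosome and rescues stalled complexes, had 5.12, 5.51 and 5.28 against 5.37, 5.20 and 5.36. Its difference was 0.0051 on the brighter probe and -0.23 on the other, so its direction depends on the probe.

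In the small subunit the median difference was -0.053, and 17 of 22 genes were below 0. Of the 22, 0 had an unadjusted p under 0.05 in limma, against 7.57% of all features. Mrps18b, 1 of 3 related proteins that replace a single bacterial one, had 1.64, 1.36 and 1.37 against 1.41, 1.07 and 1.22, a difference of -0.22 with overlapping groups. Mrps25, a protein without a bacterial counterpart, had 4.49, 4.42 and 4.49 against 4.41, 4.24 and 4.29, a difference of -0.15. Its groups nearly touched without overlapping. Mrps33, with 4.21, 4.43 and 4.09 against 4.42, 4.35 and 4.29, had the highest difference of the family, 0.11 (SE 0.12), also with overlap.

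Mrps12, the decoding-centre protein, differed by -0.012 on its brighter probe, 0.17 with normexp and 0.021 after quantile normalization, and by -0.13 on its other probe, where the groups did not overlap. Mrps2, Mrps11, Mrps31 and Mrps27 differed by 0.049, 0.029, 0.019 and 0.018; with normexp Mrps31 and Mrps27 were at -0.13 and -0.091. The protein once named Mrps36, now Kgd4 and known as a subunit of the 2-oxoglutarate dehydrogenase complex, is outside the family by its symbol and differed by -0.056 and -0.12 on its 2 probes. The gene table spells mrpl9, mrpl11 and mrpl24 in lower case, which the naming rule excludes; they differed by 0.020, -0.053 and -0.036.

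By descent, the 38 members shared with bacteria had a median difference of -0.074, with 33 below 0, and the 28 added in the mitochondrial lineage had -0.042, with 19 below 0. With normexp correction the order turned, at -0.052 and -0.090. Whether the 2 kinds differ was not tested.

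Several members have more than 1 probe, which allows the same RNA to be measured again on the same arrays. Among 34 genes with at least 2 probes past the filter, all probes had the same sign in 20 (17 lower, 3 higher) and opposite signs in 14. The median gap between the highest and lowest difference of a gene was 0.12, and it was under 0.2 for 25 genes. Of the 46 probes not used in the main comparison, 32 were lower with NTA, with a median difference of -0.057. Both probes were separated in the lower direction for only 2 genes, Mrpl52 and Mrpl22. Over the whole array, with every kept probe taken as its own feature, 55.8% were below 0. The matching shares over all genes with more than 1 probe are not given, so these counts are descriptions.

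The probes disagreed most for Mrps2, with a gap of 0.84. Its dimmest probe read -3.76, -1.96 and -1.74 with vehicle and -3.91, -1.62 and -4.32 with NTA, so it was near one of 2 levels in both groups. The brighter probes of Mrps2 gave 0.049 and 0.048. For Mrpl47 the dimmer probe read -3.60, -3.78 and -3.99 with vehicle and -3.46, -3.46 and -3.39 with NTA. That was a difference of 0.35 (0.069 with normexp), higher with NTA and without overlap. The brighter probe of Mrpl47 differed by 0.010 (-0.058 with normexp). Of the 4 probes of Mrpl40 the differences ran from -0.098 to 0.22. Mrps27 ranged from -0.26 to 0.018 over 3 probes. Mrps15, singled out after its values were seen, had a second probe at 1.44, 1.39 and 1.51 against 1.16, 0.98 and 1.11, a difference of -0.36 without overlap, while its brighter probe gave -0.12 with overlap (0.017 with normexp).

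**Figure D2:**
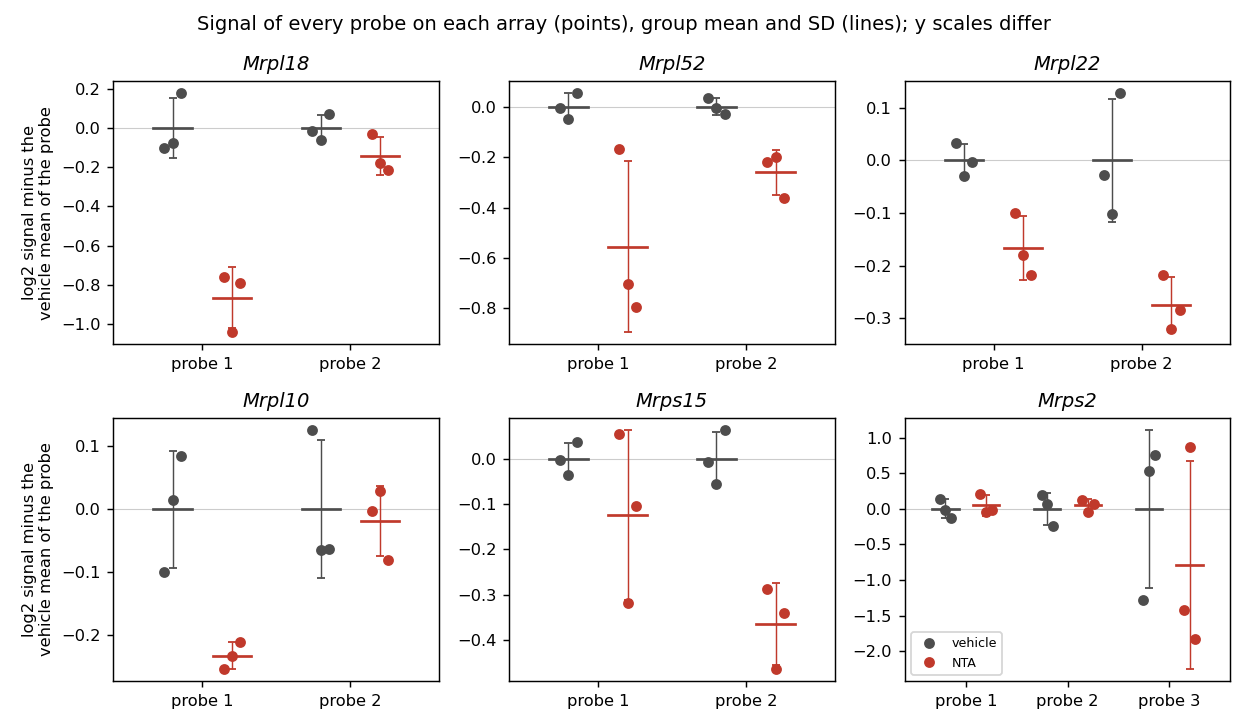
Log2 signal of every kept probe of 6 genes on each array (y axis, minus the vehicle mean of that probe; scales differ between panels), with vehicle in grey and NTA in red. Points are rats, and horizontal and vertical lines are the mean and SD of 3. Both probes of Mrpl52 and Mrpl22 separate the groups, whereas for Mrpl18 and Mrpl10 only probe 1 does and for Mrps15 only probe 2.

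**Figure D3:**
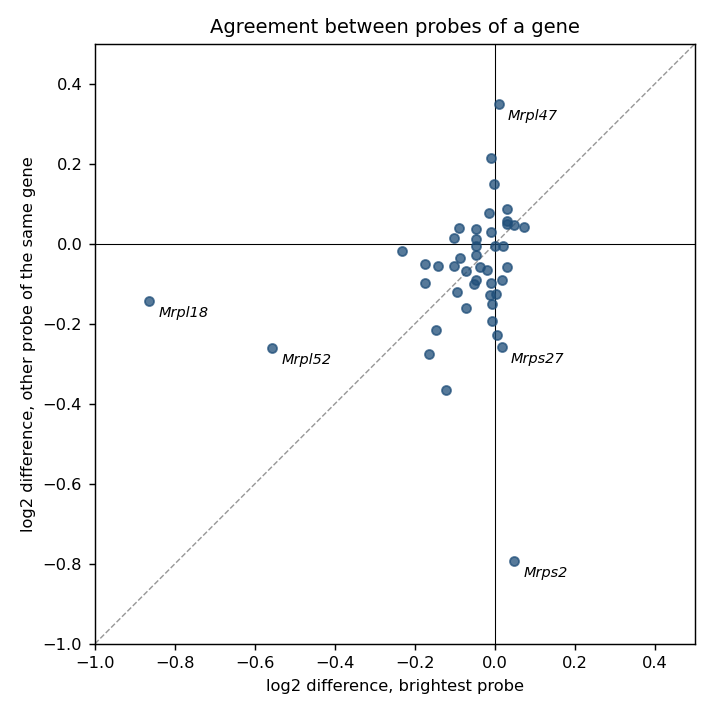
Log2 difference of each further probe (y axis) against that of the brightest probe of the same gene (x axis) for the 34 genes with at least 2 kept probes; the dashed line marks equal values. Most points lie within 0.25 of 0 on both axes, and the labelled points are among those far from that line or from 0.

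The lower levels were not spread evenly over the arrays. Relative to each gene's vehicle mean, the median deviation of the 66 genes was -0.013, -0.036 and 0.052 on vehicle arrays 1, 2 and 3. It was 0.011, -0.11 and -0.080 on NTA arrays 1, 2 and 3. NTA replicate 1 was thus within the vehicle range, and NTA replicates 2 and 3 lay below it. NTA replicate 2 was the lowest of the 6 arrays for 27 genes (40.9%, against 18.4% of all features), and vehicle replicate 3 the highest for 30 (45.5%, against 25.2%). Without vehicle replicate 3, which also leaves only the arrays of 1 scan day, the median difference was -0.029 and 46 of 66 genes were below 0, against 53.9% of all features and their median of -0.018. It was -0.033 without NTA replicate 2 and -0.10 without NTA replicate 1.

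**Figure D4:**
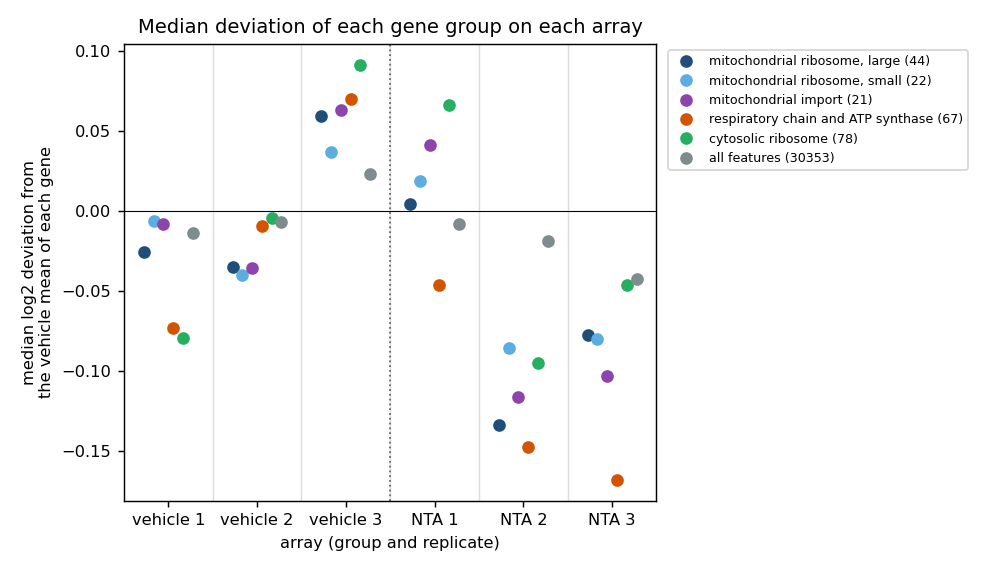
Median log2 deviation from the vehicle mean of each gene (y axis) on each of the 6 arrays (x axis), for both subunits of the mitochondrial ribosome, other gene groups and all features. Vehicle 3 is highest for both subunits, NTA 1 is near the vehicle arrays, and NTA 2 and NTA 3 are below them.

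The rest of the mitochondrial translation apparatus showed 0 genes past the adjusted threshold in limma, against 0.0297% of all features. At an unadjusted p under 0.05 in limma there were also 0, against 7.57%. This covers the other ribosomal proteins, translation factors, assembly factors and tRNA synthetases. The lists for mitochondrial DNA, biogenesis and import, given further below, likewise had 0 at both thresholds. The 5 ribosomal proteins with other symbols had a median of -0.039, and 0.0040 with normexp. Among them Gadd45gip1 had 2.92, 2.96 and 3.04 against 2.79, 2.91 and 2.76, a difference of -0.15. Ptcd3, a pentatricopeptide-repeat protein of the small subunit, had 3.82, 3.81 and 3.83 against 3.98, 3.88 and 3.95, a difference of 0.12. The groups of these genes were separated in opposite directions.

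The 12 translation factors had a median of -0.014, with 6 below 0. Tufm and Gfm1, the mitochondrial elongation factors, differed by -0.15 and -0.18. The 23 assembly factors of the mitochondrial ribosome had a median of 0.016, with 11 below 0, and Rpusd4 and Ybey, which act on mitochondrial RNA, differed by 0.23 and 0.20. The 17 mitochondrial tRNA synthetases had a median of 0.0038, with 8 below 0, and Rars2 differed by 0.16.

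Genes that keep and transcribe mitochondrial DNA lay on both sides of 0. Their median was 0.017, with 9 of 20 below 0. Tfam, which packages mitochondrial DNA and starts its transcription, had 3.65, 3.53 and 3.75 against 3.40, 3.42 and 3.50, a difference of -0.20 (SE 0.11; limma, Benjamini-Hochberg adjusted p = 0.72). Mgme1, an exonuclease for mitochondrial DNA, differed by 0.22, and for both genes the groups were separated. The 8 regulators of mitochondrial biogenesis had a median of 0.031 (-0.012 with normexp). Yy1 differed by -0.14 and the coactivator Pprc1 by 0.20.

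Most genes for import and for the respiratory chain had a lower mean with NTA, and whether their shares differ from that of the ribosomal proteins was not tested. Of 21 import genes, 17 were below 0, with a median of -0.055 (-0.017 after quantile normalization, -0.12 without NTA replicate 1, -0.092 without vehicle replicate 2, -0.035 without NTA replicate 2 and -0.028 without NTA replicate 3). Timm23 and Tomm70, the channel of the inner membrane and a receptor of the outer membrane, both differed by -0.21. Of 67 genes for subunits of the respiratory chain and ATP synthase encoded in the nucleus, 64 were below 0, with a median of -0.11 (-0.073 after quantile normalization). Of these 67, 0 passed the adjusted threshold. At an unadjusted p under 0.05 in limma there were 2 (2.99%, against 7.57% of all features), both lower. These were Ndufab1, the acyl carrier protein of complex I, with 5.34, 5.20 and 5.23 against 5.07, 4.89 and 4.93, a difference of -0.29, and Cox5a of cytochrome oxidase, at -0.31. The 78 cytosolic ribosomal protein genes, a comparison chosen after the data were seen, had a median of -0.028 (0.021 after quantile normalization, 0.014 without vehicle replicate 3 and 0.0094 without NTA replicate 2), with 52 below 0.

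Marker lists of cell types were also set out, each summed on a linear scale in units of the 75th percentile of the array. In limma 0 genes of these lists passed the adjusted threshold, against 0.0297% of all features, and the sums were not tested. The 18 hepatocyte markers summed to 9297 to 9882 with vehicle and 8465 to 8987 with NTA, with 14 below 0 and a median difference of -0.13 (-0.063 with normexp and -0.055 after quantile normalization). The 14 of 17 sinusoidal endothelial markers that passed the filter summed to 79.3 to 96.2 against 106 to 117, and the 11 of 15 erythroid markers to 773 to 853 against 964 to 1512. The 24 of 30 cell cycle genes summed to 11.9 to 13.5 against 14.6 to 18.8, with all 24 above 0. The 7 of 10 markers of B and plasma cells summed to 2.43 to 3.17 against 3.19 to 3.99. Here the gap, from 3.17 to 3.19, was narrow. Gene by gene, 4 of 18 hepatocyte markers had all 3 NTA rats below all 3 vehicle rats (22.2%, against 8.03% of all features). All 3 lay above for 10 of 14 endothelial and 5 of 11 erythroid markers. That held for 11 of 24 cell cycle genes and 2 of 7 B and plasma cell markers, against 5.57% of all features. The sums of these lists did not overlap between the groups. Those of the 19 Kupffer cell, 13 stellate cell, 8 biliary, and 12 T and NK cell markers did. By sign, however, all 19 Kupffer cell markers were above 0, with a median difference of 0.35 (0.076 without vehicle replicate 3). Of the other 3 lists, 6 of 13 stellate cell, 4 of 8 biliary, and 9 of 12 T and NK cell markers were above 0. The sum of the 66 mitochondrial ribosomal protein genes was 1099 to 1184 with vehicle and 1037 to 1111 with NTA, with an overlap. The part of cell type content in the lower means was not tested.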

How the data were processed

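The submitters' processing notes name Agilent Feature Extraction 10.7, and the file headers give version 10.7.1.1, array design 035170 and build rn4. The deposited scanner files hold, per the file headers, a processed signal, which is a linear intensity after background subtraction. A series table deposited by the authors gives the ratio of this signal to the 75th percentile of its array, which matched 100% of probes within 0.0001 plus 0.2%; its column medians ran from 0.096 to 0.1. It comes from the same signal, so its use is not an independent check.

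Values here are log2 processed signal minus log2 of the 75th percentile over 61657 non-control probes, computed from the deposited intensities. Accessions matched 1 RefSeq symbol (GRCr8 table) for 27460 probes and none for 34197. Kept probes were well above background on all arrays of 1 group or of both, and a gene took its brightest kept probe. Of 113 probes of the family 112 were kept; the other was a dim probe of Mrpl30. Groups were compared in limma 3.58.1 (R 4.3.3, lmFit and eBayes, two-sided, 4 residual and 2.54 prior degrees of freedom) with Benjamini-Hochberg adjustment over 30353 features. The pipeline was run on simulated data with changes larger than that of any member, so that run does not show how well smaller differences are found. With 3 rats against 3, an exact permutation test cannot go below p = 0.1, so none was run.

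Named members were up to 10 per direction by smallest unadjusted p, up to 6 whose probes differed most, and Mrpl18, Mrpl12, Mrpl58, Mrps12 and Mrps36; from each mitochondrial list the 2 with the smallest p, of which 1 gene is not reported here. No member had a change that was only bounded. Gene lists and subunit roles were written from general knowledge. Members and lists were chosen with earlier results of these data known. Alternatives were normexp background correction (median signal and local background, offset 50; no mean-signal column was used), quantile and median scaling, other filters and probe rules, the deposited table, scan day, slide and replicate number as blocks, and leaving out each array. Replicates were taken as separate rats because the treatment protocol speaks of 3 animals per group.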

Additional observations from a re-analysis of the deposited data

How the results depend on the processing

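No member passed the adjusted threshold under any alternative run (0 of 66, and 0 of 112 with every probe tested alone); over 450 alternative values of the 25 named members the smallest limma adjusted p was 0.14. The limma count at an unadjusted p under 0.05, 2 in the main setting, was 13 with normexp background correction (19.7% against 10.8% of all features). Without the filter on dim probes it was 4 (6.06% against 8.03%), and with trended, robust eBayes 4 (6.06% against 7.36%). With every probe its own feature it was 6 of 112 (5.36% against 7.38%). With scan day as a block or scan day 1 alone it was 1 (1.52% against 7.91%). Leaving out 1 array gave 1 to 3 (1.52% to 4.55%, against 6.07% to 8.45% of all features). With 1 array left out, members below 0 numbered 46 to 59, and the median ran from -0.10 (without NTA replicate 1) to -0.029 (without vehicle replicate 3). After quantile normalization 40 members were below 0. The large and small subunit medians ran from -0.11 to -0.033 and from -0.084 to -0.020 with 1 array left out. Correlations of deviations at the same replicate number were 0.17, -0.0064 and -0.075, and at different numbers they ran from -0.15 to 0.15. These values do not settle whether the numbers pair the samples. With the replicate block the members gave the same 0, 2, 52 and -0.060, and 0 features in place of 9 were called over the whole array.

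Some of the 25 named members changed direction under some settings; the cause was not tested, and members not named were not listed. With normexp they were Mrps30 (-0.092), Mrpl44 (-0.045), Mrps31 (-0.13), Mrps27 (-0.091), Mrpl47 (-0.058), Mrpl12 (0.044) and Mrps12 (0.17), and after quantile normalization Mrpl40 (0.032) and Mrps12 (0.021). With the probes averaged they were Mrps2 (-0.23), Mrps27 (-0.11), Mrpl40 (0.035) and Mrpl58 (-0.11). With the scan day block, equal by construction to scan day 1 alone, they were Mrps2 (-0.013), Mrps31 (-0.0042), Mrpl47 (-0.038), Mrpl40 (0.027), Mrpl58 (-0.0081) and Mrps12 (0.033). Leaving out 1 array gave Mrpl44 -0.035 to 0.13, Mrps2 -0.034 to 0.12, Mrpl57 -0.0043 to 0.059, Mrpl41 -0.028 to 0.079, Mrps11 -0.027 to 0.066, Mrps31 -0.045 to 0.082, Mrps27 -0.11 to 0.12, Mrpl47 -0.038 to 0.056, Mrpl40 -0.045 to 0.027, Mrpl58 -0.086 to 0.11 and Mrps12 -0.047 to 0.033.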
